A study of Mus musculus with 10 samples.

Results

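The genes described here are 10 genes of mitochondrial fusion, mitochondrial fission and mitophagy, taken by name from the 55401 genes listed for each mouse. They are the fusion genes Mfn1, Mfn2 and Opa1, the fission genes Dnm1l, Fis1 and Mff, and the mitophagy genes Pink1, Fundc1, Bnip3 and Bnip3l. All 10 were found in every mouse, and all 10 passed the filter on low values, a mean FPKM of at least 1 over the mice. Their levels were not a criterion of choice, but earlier results of these data were known when the genes and the lists below were chosen.

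RNA from the left ventricle (LV) was sequenced in 10 wild-type mice aged 4 weeks, of which 5 had undergone nAAC and 5 a sham operation, 1 library each. In nAAC the ascending aorta of a newborn pup is narrowed surgically, so that the LV grows up against a raised pressure. According to the methods of the study, the mice had a C57BL/6 background, and nAAC and sham pups were nursed by their mothers and were of both sexes. For the in vivo experiments in general, the methods state that wild-type mice came from AHR+/- parents. The labels give no parentage for the sequenced mice. The operation was performed on the first day of life, and RNA came from LV tissue and not from isolated cells. Fewer cells of a type and less RNA per cell cannot be told apart in such tissue.

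Mitochondria continually join and divide. The mitofusins Mfn1 and Mfn2 tether and merge the outer membranes, and Opa1 merges the inner membranes and shapes the cristae. Division is carried out by the GTPase Drp1, the product of Dnm1l, which is drawn from the cytosol to the outer membrane by receptors such as Mff, while Fis1 is an outer membrane protein linked to division and to the clearance of mitochondria. In mitophagy, mitochondria are delivered to autophagosomes. The kinase Pink1 builds up on depolarized mitochondria and marks them for ubiquitin-dependent removal, whereas Fundc1, Bnip3 and Bnip3l (also called Nix) are outer membrane receptors that bind LC3 proteins themselves. Bnip3 is a known target gene of the hypoxia-inducible factors. Cardiomyocytes are rich in mitochondria, and Mfn2 and Drp1 are both needed for a normal heart.

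The promoters of Bnip3 and Pink1 are shown because these are the mitophagy genes with the largest differences in mean level, in opposite directions. Each line gives the 120 bases upstream of the RefSeq transcription start, on the gene's own strand, from build GRCm38.p6. Bnip3 lies at chr7:138909507-138909626 and Pink1 at chr4:138326297-138326416, both on the minus strand. Capitals mark ACGTG or its reverse complement CACGT, which overlap in the palindrome of the Bnip3 promoter. These letters are a form of the core of the hypoxia response element. The form GCGTG was neither searched for nor marked, and the Bnip3 and Pink1 lines both hold it in lower case.
Bnip3: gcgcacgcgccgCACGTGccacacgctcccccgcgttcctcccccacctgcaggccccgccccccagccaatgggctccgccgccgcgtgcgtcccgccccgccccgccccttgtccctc
Pink1: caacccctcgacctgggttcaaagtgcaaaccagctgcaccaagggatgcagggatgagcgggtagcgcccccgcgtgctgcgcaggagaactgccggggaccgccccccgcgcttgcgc
The search covered both strands of 300 bases around each start. Of 32851 mouse promoters 19.6% held ACGTG or CACGT, and of 27025 genes 21.8% had a promoter that did. Of the 9 genes with an entry ACGTG or CACGT was found in 2, Bnip3 and Mfn2. A second motif, AAGGTCA or its reverse complement TGACCTT, the extended binding motif of the estrogen-related receptors, was present in 4.72% of all promoters, in promoters of 5.38% of all genes and in 0 of these 9 genes. Bnip3l had no entry. A match is a run of letters and not a shown binding site.

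To ask whether chronic pressure overload of the young LV went with a different level of this machinery, FPKM was compared between the groups. FPKM counts the fragments of a gene relative to its transcript length and to the depth of the library. Tests were run with limma on log2(FPKM + 1) over 11867 genes, with Benjamini-Hochberg adjustment. A log2 fold change (FC) is nAAC minus sham on that scale. A gene was called at an adjusted p below 0.05. Of the 10 genes, 0 were called in either direction, while 27.1% of all genes tested were called higher in nAAC mice and 4.6% lower, 31.7% in all. At an unadjusted limma p below 0.05 the count was 1, Bnip3, and by the exact permutation test of 5 against 5 mice, unadjusted, it was 3, namely Bnip3, Mfn1 and Mff. Of all genes tested, 43.4% had an unadjusted limma p below 0.05 and 41% an exact permutation p below 0.05. With a log2 FC beyond 1 in either direction as a further condition, the count was 0 of 10, also at an unadjusted p, against 5.91% of all genes. The 2 groups overlapped for each of the 10 genes, whereas they did not overlap for 22.3% of all genes tested. The 95% confidence intervals of the log2 FC stayed within 0.78 of 0 for the 9 genes other than Pink1, whose interval ran from -1.03 to 0.15.

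**Figure D1:**
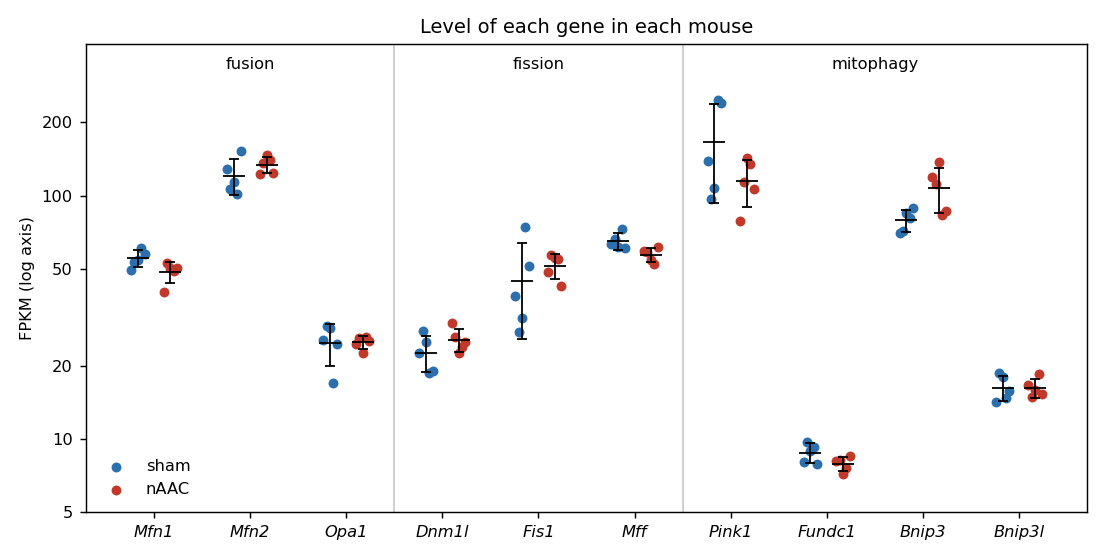
FPKM of the 10 genes on a log axis, 1 point per mouse, with sham mice in blue and nAAC mice in red, and black bars for the mean ± SD of 5 mice. The groups overlap for every gene, sham mice spread widely for Pink1 and Fis1, and 3 of the 5 nAAC points for Bnip3 lie above all sham points.

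The 10 libraries held an estimated 4.86 to 6.82 gigabases of aligned sequence, and the fragment counts behind single values are unknown, so the error of a value is given as the spread over mice. The typical tested gene had a log2 FC of 0.22 (median over all 11867), which became -0.0008 after median-ratio scaling, which equalizes the typical gene between libraries. Transcripts of the mitochondrial genome held 32.8% to 39.9% of TPM in nAAC mice and 33.7% to 49.8% in sham mice, and a larger share of them leaves less for every nuclear gene. Sham replicate 4 stood apart from the other libraries on the second principal component, and it had the lowest mitochondrial share of the sham mice, 33.7%. No batch was given. Markers of cardiomyocytes were abundant in all mice, with sums over 12 genes of 13256 to 20790 FPKM in nAAC mice and 16620 to 31181 in sham mice. Fibroblast markers summed to 418 to 683 FPKM in nAAC mice and 365 to 384 in sham mice. No marker was listed at 0 in all mice.

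Among the fusion genes, Mfn2 had the highest level. Its FPKM in nAAC replicates 1 to 5 was 123, 136, 147, 140 and 124, and in sham replicates 1 to 5 it was 129, 106, 114, 102 and 153. The nAAC values lay within the range of the sham values at their upper side. The mean was 134 ± 10.6 (SD, n = 5) against 121 ± 20.8 (SD, n = 5), with a log2 FC of 0.16 (95% interval -0.14 to 0.46, adjusted p = 0.393). Mfn2 (ENSMUSG00000029020) spans chr4:147873599-147904704 on the minus strand.

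The other mitofusin, Mfn1, was at less than the level of Mfn2 in every mouse. Its FPKM was 40.2, 52.9, 50.5, 48.8 and 50.4 in the nAAC mice and 49.4, 53.2, 54.6, 61.0 and 57.5 in the sham mice. Of the nAAC mice, 2 lay below all sham mice and none lay above them. The mean of 48.6 ± 4.90 (SD, n = 5) stood against 55.1 ± 4.36 (SD, n = 5), a log2 FC of -0.18 (95% interval -0.44 to 0.07, adjusted p = 0.252), and the exact permutation p was 0.048. Mfn1 (ENSMUSG00000027668) spans chr3:32529465-32579239 on the plus strand.

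The ratio of Mfn2 to Mfn1 within a mouse does not depend on how libraries are scaled. It was 3.06, 2.58, 2.92, 2.87 and 2.45 in the nAAC mice and 2.61, 2.0005, 2.09, 1.67 and 2.66 in the sham mice. The nAAC values lay toward the upper end, with the groups overlapping. The means were 2.78 ± 0.250 (SD, n = 5) and 2.21 ± 0.423 (SD, n = 5), with an exact permutation p of 0.048 and an adjusted p of 0.190 over the 8 ratios tested.

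Opa1, the inner membrane fusion GTPase, had almost equal mean levels. It measured 24.6, 26.0, 22.4, 26.3 and 25.2 FPKM in the nAAC mice and 25.5, 29.0, 28.4, 16.9 and 24.5 in the sham mice. Sham replicate 4 was the lowest of all 10 mice, and the nAAC mice spread less, with a coefficient of variation of 6.17% against 19.5%. The log2 FC was 0.02 (95% interval -0.29 to 0.34, adjusted p = 0.911), and without sham replicate 4 it was -0.10. Opa1 (ENSMUSG00000038084) spans chr16:29579334-29654884 on the plus strand.

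Among the fission genes, Mff showed the tightest levels. In the nAAC mice its FPKM was 58.9, 58.5, 54.5, 52.2 and 61.2, and in the sham mice 63.3, 66.1, 61.5, 72.9 and 60.6. Of the nAAC mice, 4 lay below every sham mouse, and nAAC replicate 5 lay above the lowest. The mean was 57.0 ± 3.61 (SD, n = 5) against 64.9 ± 4.92 (SD, n = 5), a log2 FC of -0.18 (95% interval -0.42 to 0.06, adjusted p = 0.222) with an exact permutation p of 0.016, where the smallest p that 5 against 5 mice allow is 0.0079. Mff (ENSMUSG00000026150) spans chr1:82724890-82752394 on the plus strand.

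Fis1 varied most among the fission genes, and the spread was on the sham side. Its FPKM was 48.3, 56.7, 55.4, 54.8 and 42.5 in the nAAC mice and 38.8, 27.5, 31.2, 74.1 and 51.5 in the sham mice. Sham replicate 4 had the highest value of all mice and sham replicates 1 to 3 the lowest. The mean was 51.5 ± 6.02 (SD, n = 5) against 44.6 ± 18.9 (SD, n = 5), a log2 FC of 0.29 (95% interval -0.21 to 0.78, adjusted p = 0.354). Without sham replicate 4 the log2 FC was 0.49 and the adjusted limma p 0.040, while without sham replicate 2 they were 0.14 and 0.659. After median-ratio scaling, which sets the typical gene equal between libraries, the log2 FC was 0.01 (adjusted p = 0.973). Fis1 (ENSMUSG00000019054) spans chr5:136953275-136966234 on the plus strand.

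Dnm1l, which encodes Drp1, measured 29.9, 26.3, 22.6, 23.7 and 24.9 FPKM in the nAAC mice and 22.6, 27.6, 25.1, 18.6 and 19.1 in the sham mice. One nAAC mouse lay above all sham mice. The log2 FC was 0.18 (95% interval -0.12 to 0.47, adjusted p = 0.335). Dnm1l (ENSMUSG00000022789) spans chr16:16312230-16358959 on the minus strand. The ratio of Dnm1l to Opa1, fission GTPase to inner membrane fusion GTPase, averaged 1.02 ± 0.114 in nAAC mice and 0.921 ± 0.120 in sham mice (SD, n = 5 for both), with an exact permutation p of 0.190 and an adjusted p of 0.305. The ratio of Mff to Fis1 averaged 1.13 ± 0.204 (SD, n = 5) against 1.63 ± 0.579 (SD, n = 5), with an exact permutation p of 0.119 and an adjusted p of 0.238.

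Bnip3 was the mitophagy gene with the highest mean relative to sham. Its FPKM was 119, 111, 138, 82.8 and 86.5 in the nAAC mice and 70.1, 71.1, 84.6, 80.5 and 89.2 in the sham mice. Of the nAAC mice, 3 lay above every sham mouse, and nAAC replicates 4 and 5 lay among the sham mice. The mean was 107 ± 22.9 (SD, n = 5) against 79.1 ± 8.33 (SD, n = 5), a log2 FC of 0.42 (95% interval 0.07 to 0.76), with an adjusted p of 0.060 and an exact permutation p of 0.048. The log2 FC was 0.50 (adjusted p = 0.040) without nAAC replicate 4 and 0.32 (adjusted p = 0.146) without nAAC replicate 3. It was 0.14 (adjusted p = 0.613) after median-ratio scaling and 0.15 (adjusted p = 0.557) after upper-quartile scaling. With FPKM divided by the share of TPM outside the mitochondrial genome it was 0.23 (adjusted p = 0.309). Bnip3 (ENSMUSG00000078566) spans chr7:138890836-138909519 on the minus strand.

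Pink1 had the widest spread of the 10 genes. In the nAAC mice it measured 78.6, 113, 143, 134 and 106 FPKM, and in the sham mice 139, 96.7, 107, 246 and 239. Sham replicates 4 and 5 were high, and the other sham mice lay within the range of the nAAC mice. The mean was 115 ± 25.4 (SD, n = 5) against 166 ± 72.0 (SD, n = 5), a log2 FC of -0.44 (adjusted p = 0.230), and it was -0.27 without sham replicate 4 and -0.28 without sham replicate 5. The same 2 sham libraries had the highest sums of cardiomyocyte markers, 31181 and 24775 FPKM against 16620 to 18122 in the other sham mice, and the lowest mitochondrial genome shares of the sham mice, 33.7% and 38.3%. The part of these in the Pink1 values was not tested. Pink1 (ENSMUSG00000028756) spans chr4:138313409-138326307 on the minus strand.

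Fundc1 was the least abundant of the 10 genes by FPKM. It measured 8.08, 8.16, 7.16, 7.56 and 8.47 FPKM in the nAAC mice and 8.001, 9.74, 8.90, 9.28 and 7.87 in the sham mice. The groups overlapped, with 2 nAAC mice below all sham mice. The log2 FC was -0.13 (95% interval -0.35 to 0.09, adjusted p = 0.331). Fundc1 (ENSMUSG00000025040) spans chrX:17556564-17572325 on the minus strand, and with the level of Xist, which tracks sex, as a covariate its log2 FC was -0.09. The same covariate took Pink1 to -0.76 (95% interval -1.42 to -0.11, adjusted p = 0.108), Dnm1l to 0.31 (adjusted p = 0.213), Opa1 to 0.14 (adjusted p = 0.621) and Fis1 to 0.09 (adjusted p = 0.853).

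Bnip3l, the closest relative of Bnip3, measured 16.7, 14.8, 15.9, 18.4 and 15.2 FPKM in the nAAC mice and 14.2, 18.6, 18.0, 14.8 and 15.7 in the sham mice. The group means were 16.2 in both, with a log2 FC of 0.00 (95% interval -0.25 to 0.25, adjusted p = 0.995). A processed copy, Bnip3l-ps, was listed at mean levels of 3.76 FPKM in nAAC mice and 3.11 in sham mice, and reads that fit both copies could have been split between them, so the level of Bnip3l is uncertain. Bnip3l (ENSMUSG00000022051) spans chr14:66985239-67008877 on the minus strand. Genes whose span overlaps one of the other 9 had mean levels of at most 0.625 FPKM.

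Within a mouse, Bnip3 was set against the other receptors. The ratio of Bnip3 to Fundc1 averaged 13.7 ± 3.57 in nAAC mice and 9.12 ± 1.47 in sham mice (SD, n = 5 for both), 1.48-fold higher as a ratio of geometric means, with an exact permutation p of 0.024 and an adjusted p of 0.190. The ratio of Bnip3 to Bnip3l averaged 6.69 ± 1.63 (SD, n = 5) against 4.93 ± 0.723 (SD, n = 5), with an exact permutation p of 0.087 and an adjusted p of 0.233. For Pink1 to Fundc1 the means were 14.8 ± 4.11 and 19.2 ± 8.93 (SD, n = 5 each), and the exact permutation p was 0.437. The ratios of Opa1 to Mfn2 and of Dnm1l to Mfn2 had exact permutation p values of 0.421 and 0.921. Of the 8 ratios, 0 had an adjusted p below 0.05, 2 had an unadjusted exact p below 0.05, and the groups overlapped for all 8.

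**Figure D2:**
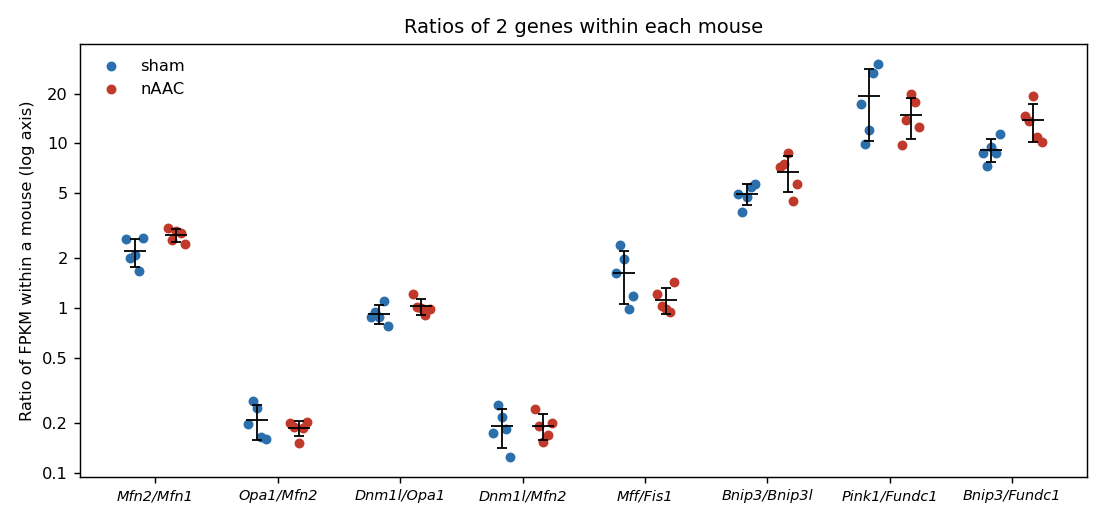
Ratio of FPKM of 2 genes within each mouse, on a log axis, for the 8 ratios, with sham mice in blue, nAAC mice in red and black bars for the mean ± SD of 5 mice. Mfn2/Mfn1, Bnip3/Bnip3l and Bnip3/Fundc1 have higher means in nAAC mice (2.78, 6.69 and 13.7) than in sham mice (2.21, 4.93 and 9.12), and all groups overlap.

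The order of levels by mean FPKM was similar in both groups but not equal. In nAAC mice it ran from Mfn2 at 134 through Pink1 at 115, Bnip3 at 107, Mff at 57.0, Fis1 at 51.5, Mfn1 at 48.6, Dnm1l at 25.5, Opa1 at 24.9 and Bnip3l at 16.2 to Fundc1 at 7.88. Neighbours whose ranges did not overlap in nAAC mice were Bnip3 and Mff, Mfn1 and Dnm1l, Opa1 and Bnip3l, and Bnip3l and Fundc1. In sham mice Pink1 came first at 166 and Mfn2 second at 121, and only Mfn2 and Bnip3, Dnm1l and Bnip3l, and Bnip3l and Fundc1 had ranges that did not overlap. The order rests on the length by which FPKM is divided. For Mff the FPKM was 6.36 times the depth-scaled coverage of its exons, for Bnip3l 3.73 times and for Fis1 2.59 times, against 1.13 to 1.38 times for the other 7. Coverage, the mean number of reads over an exon base, was higher for Fundc1 than for Bnip3l in 10 of 10 mice, whereas FPKM was higher for Bnip3l in 10 of 10. Likewise Mfn1 exceeded Mff in coverage in 10 of 10 mice, with 173 to 227 reads per base against 42.8 to 64.2, and Mff exceeded Mfn1 in FPKM in 10 of 10.

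The factor between FPKM and coverage gives the mean length of the annotated transcripts to which a gene's reads were assigned. This reading of the files was chosen after the data were seen, and it held within 0.01 for 98.9% of 1733 genes with 1 transcript. The 10 genes have 3 to 16 annotated transcripts each, and of 10127 genes with several, 94.7% had a mean length within the range of their annotated transcripts, with a tolerance of 2%. The mean length was 1562 ± 49.5 bases in nAAC mice and 1511 ± 32.7 in sham mice (SD, n = 5 for both) for Mff, 39.2% of its longest annotated transcript. For Bnip3l it was 1036 ± 3.23 and 1035 ± 2.37 bases (SD, n = 5 each), 31.8% of the longest, although its 2 annotated coding transcripts have 3238 and 3259 bases. Annotated transcripts shorter than the coding forms of Bnip3l thus carried part of its assigned level. Pink1 and Bnip3 lay at 99.9% and 99.8% of their longest transcripts, so that 1 form accounts for nearly all of their assigned level.

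Opa1, which is alternatively spliced, had the largest shift in this measure. Its mean length was 5624, 5636, 5423, 5447 and 5702 bases in the nAAC mice and 5866, 5830, 5781, 6048 and 5698 in the sham mice. Of the nAAC mice, 4 lay below all sham mice, and nAAC replicate 5 lay just above the lowest. The means were 5566 ± 124 (SD, n = 5) and 5845 ± 130 (SD, n = 5) bases, a log2 difference of -0.07 with an exact permutation p of 0.016, an unadjusted limma p of 0.0059 and an adjusted p of 0.341 over 10100 genes. For Mff, whose means are given above, the log2 difference was 0.05, with 4 nAAC mice above all sham mice, an exact permutation p of 0.048 and an adjusted p of 0.637. For Mfn1 the log2 difference in mean length was 0.01, with 4479 ± 15.9 against 4437 ± 27.8 bases (SD, n = 5 each), an exact permutation p of 0.032 and an adjusted p of 0.483. With limma, 0 of the 10 genes passed at an adjusted p below 0.05 and 2 at an unadjusted one, while 0.238% of the 10100 genes passed the adjusted test and 8.33% the unadjusted one.

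**Figure D3:**
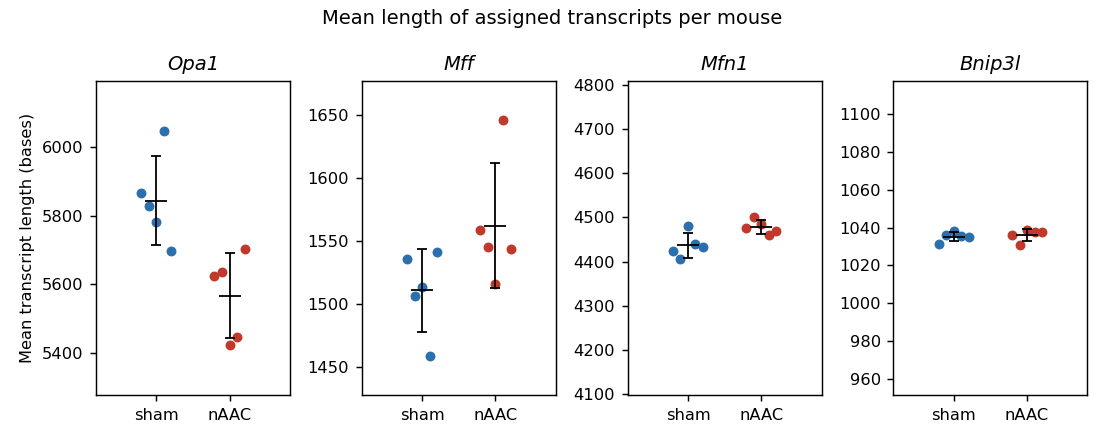
Mean length in bases of the transcripts to which reads of Opa1, Mff, Mfn1 and Bnip3l were assigned, 1 point per mouse, with sham mice in blue, nAAC mice in red and black bars for the mean ± SD of 5 mice; each axis covers 8% either side of the middle of that gene's range and does not start at 0. Opa1 lies at 5423 to 5702 bases in nAAC mice and 5698 to 6048 in sham mice, and Bnip3l at 1031 to 1038 in all mice.

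Which of the 10 genes were called depended on the scaling between libraries. Under median-ratio scaling 4 of 10 were called lower in nAAC mice and 0 higher, beside 12.1% and 13.2% of all genes. These were Pink1 with a log2 FC of -0.72 (adjusted p = 0.037), Mfn1 with -0.46 (adjusted p = 0.007), Mff with -0.46 (adjusted p = 0.013) and Fundc1 with -0.38 (adjusted p = 0.026). With TPM in place of FPKM, none of these was called, and Bnip3 was called higher with 0.59 (adjusted p = 0.013). The sign of the log2 FC of Pink1, Mfn1 and Mff was negative, and that of Bnip3 and Fis1 positive, in every scaling tried, whereas the sign of Mfn2, Opa1, Dnm1l, Bnip3l and Fundc1 turned with the scaling. Relative to the median of all genes, 8 of the 10 lay lower in the FPKM as deposited, by -0.66 for Pink1, -0.41 for Mfn1 and for Mff, -0.36 for Fundc1, -0.22 for Bnip3l, -0.20 for Opa1, -0.06 for Mfn2 and -0.05 for Dnm1l, and Fis1 and Bnip3 lay higher, by 0.06 and 0.19. The median log2 FC of the 10 was 0.01 beside 0.22 for all genes, and it was -0.25 beside -0.0008 under median-ratio scaling.

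**Figure D4:**
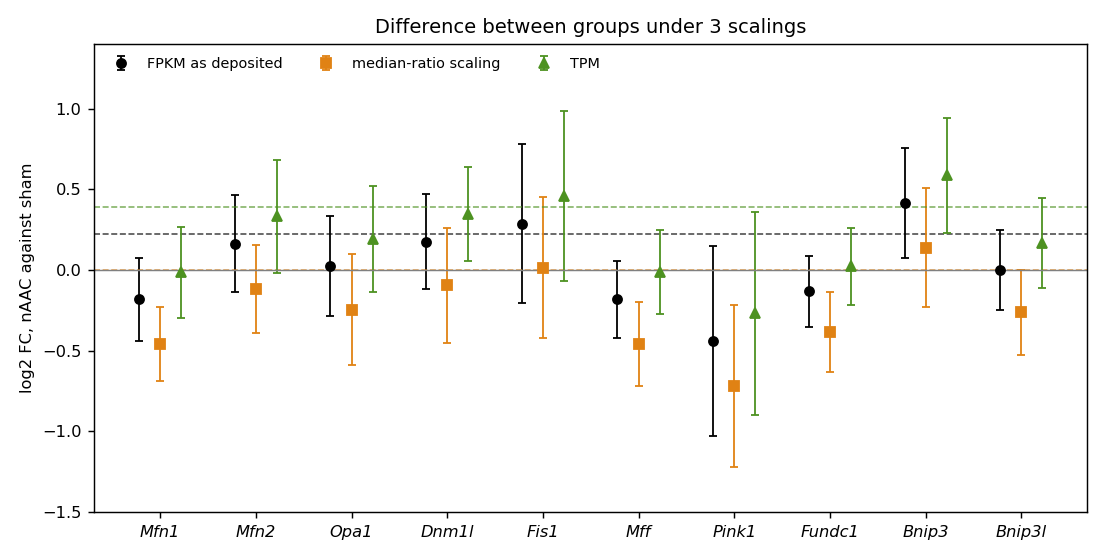
Log2 FC of each gene, nAAC against sham, with its 95% confidence interval, for FPKM as deposited (black circles), after median-ratio scaling (orange squares) and for TPM (green triangles); dashed lines give the median of all genes tested in the same colors (0.22, -0.0008 and 0.39). After median-ratio scaling the intervals of Pink1, Mfn1, Mff, Fundc1 and, by a small margin, Bnip3l lie below 0, and those of Bnip3 for FPKM and TPM and of Dnm1l for TPM lie above 0.

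The wider machinery was described through 78 further genes in 6 lists, of which 73 were tested. In all, 12 were called higher and 3 lower in nAAC mice, with a median log2 FC of 0.12, and under median-ratio scaling 6 were higher and 13 lower, with a median of -0.15. The shares over all genes were 27.1% higher and 4.6% lower for FPKM, and 13.2% and 12.1% under median-ratio scaling.

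Of 12 fusion accessory genes 1 rose and 1 fell. Afg3l2, a subunit of an inner membrane protease, rose with a log2 FC of 0.38 (adjusted p = 0.041), and Mtch2, an outer membrane protein, fell with -0.35 (adjusted p = 0.046). Of 12 fission accessory genes 2 rose and 1 fell. Spire1, an actin nucleator, rose with 0.55, Dnm2, a dynamin of membrane scission, rose with 0.49, and Mtfr1, a regulator of fission, fell with -0.38 (adjusted p = 0.002, 0.010 and 0.046). Under median-ratio scaling 0 fusion accessory genes were higher and 3 lower, with Afg3l2 at 0.10 (adjusted p = 0.518), and 1 fission accessory gene was higher and 2 lower, with Dnm2 at 0.23 (adjusted p = 0.138).

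Of 18 mitophagy accessory genes 2 rose, and both encode receptors that link ubiquitin to LC3. Optn averaged 23.8 ± 3.49 FPKM against 13.2 ± 2.90 in the sham mice (SD, n = 5 for both), giving a log2 FC of 0.82 (adjusted p = 0.001), with no overlap between groups. Sqstm1, which encodes p62, had a log2 FC of 0.59 (adjusted p = 0.026). Of 19 core autophagy genes 4 rose and 0 fell, led by Gabarapl1, an LC3-like protein, whose FPKM averaged 46.8 ± 4.32 after nAAC and 22.9 ± 4.01 after sham surgery (SD, n = 5 for both), giving a log2 FC of 1.01 (adjusted p = 0.0001). Atg13, a subunit of the kinase complex that starts autophagosomes, rose with 0.71, and Ambra1, a Beclin 1 partner, with 0.47 (adjusted p = 0.002 and 0.015). Under median-ratio scaling 1 mitophagy accessory gene (Optn) was higher and 3 lower, and 2 core autophagy genes (Gabarapl1 and Atg13) were higher and 1 lower.

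In the MICOS list, genes of the complex that holds crista junctions, 1 of 7 fell, Apoo with a log2 FC of -0.44 (adjusted p = 0.040), and 4 of 7 were lower under median-ratio scaling, with a list median of -0.50. In the motility list 3 of 5 rose. Kif5b, the kinesin motor that carries mitochondria along microtubules, averaged 40.6 ± 3.63 FPKM against 18.6 ± 2.44 (SD, n = 5 for both), giving a log2 FC of 1.09, and its adaptors Trak2 and Trak1 rose with 0.74 and 0.50 (adjusted p = 0.0004 and 0.010). Under median-ratio scaling 2 of the 5 were higher, Kif5b and Trak2. The Miro genes Rhot1 and Rhot2 had log2 FCs of 0.03 and -0.00, named here after their values were seen.

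For reference, 15 hypoxia response genes were set beside Bnip3. In this list 6 rose and 1 fell, beside 27.1% and 4.6% of all genes tested. A positive log2 FC was seen in 14 of the 15. Of all 11867 genes tested, 9089 had a positive log2 FC and 2778 a negative one. P4ha1 and P4ha2, prolyl hydroxylases of collagen, rose with 1.57 and 0.80, Slc2a1, the glucose transporter Glut1, rose with 0.9998, and Pfkfb3, a regulator of glycolysis, fell with -0.43 (adjusted p = 0.034). Under median-ratio scaling 3 genes of the list were higher and 1 lower, with a list median of 0.09. The promoter letters capitalized above for Bnip3 were found in 12 of these 15 genes, beside the 21.8% of all genes given above. The 15 were listed as hypoxia response genes, so this share follows at least in part from how they were chosen. The part of hypoxia in the level of Bnip3 was not tested. Of 10 mitochondrial content genes 3 fell and 9 had a negative log2 FC, with a median of -0.37, and under median-ratio scaling 7 were lower, with a median of -0.65. Sdha, a subunit of complex II, fell with -0.56, Cs, citrate synthase, with -0.51 and Uqcrc2, of complex III, with -0.35 (adjusted p = 0.016, 0.010 and 0.040). The 10 fusion, fission and mitophagy genes had medians of 0.01 and -0.25 on these scales.

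**Figure D5:**
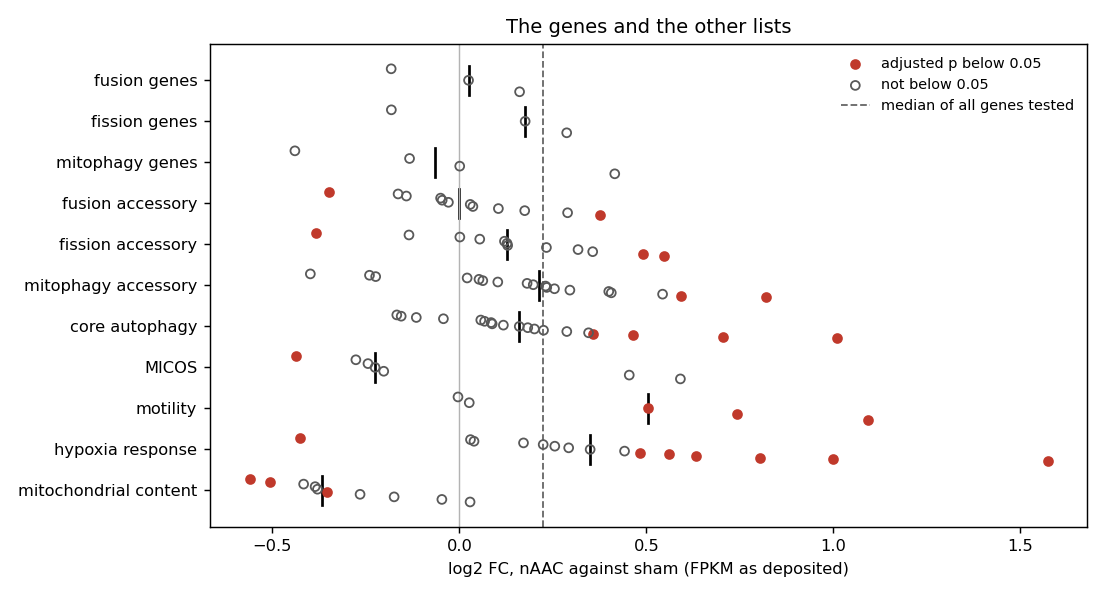
Log2 FC of each tested gene in the groups of fusion, fission and mitophagy genes and in 8 further lists, nAAC against sham, in the FPKM as deposited; filled red points have an adjusted p below 0.05, open points do not, short black lines are the medians of the lists and the dashed line is the median of all genes tested (0.22). The top 3 groups hold no filled point, the core autophagy, motility and hypoxia response lists extend beyond 1, and the mitochondrial content list lies mostly below 0.

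Some markers of other cell types differed between the groups. Beside the counts below, 27.1% of all genes tested were called higher in nAAC mice and 4.6% lower. Of 6 fibroblast markers 4 rose, including Col1a1 with a log2 FC of 2.09, Tcf21 with 0.84 and Lum with 0.65 (adjusted p = 0.046 for Lum), and of 6 mural cell markers 4 rose, including Myh11 with 1.25, Cspg4 with 1.24 and Acta2 with 0.85. Of 6 endothelial markers 1 rose, Kdr with 0.66, and of 6 macrophage markers 1 rose, C1qa with 1.20. Of 12 cardiomyocyte markers 2 rose, Mybpc3 with 0.86 and Actn2 with 0.67, and 3 fell, Atp2a2 with -0.87, Pln with -0.86 and Tnni3 with -0.82. Under median-ratio scaling 2 fibroblast, 2 mural, 0 endothelial and 1 macrophage markers were higher, and 0 of these lists were lower. Lum, Acta2 and Kdr were then not called. Of the cardiomyocyte markers, 2 were higher and 5 lower under that scaling. Summed levels ran from 249 to 349 FPKM in nAAC mice and 164 to 278 in sham mice for mural cells, from 143 to 263 against 137 to 218 for endothelial cells and from 112 to 219 against 74.5 to 166 for macrophages. The 3 atrial markers did not pass the test, and their sum ran from 2.03 to 227 FPKM in nAAC mice and 3.05 to 44.7 in sham mice. When every library was centred on its cardiomyocyte markers, Bnip3 had a log2 FC of 0.52 (adjusted p = 0.022) and the other 9 genes were not called. The markers used for centring include those called above. The median log2 FC of all genes was then 0.32. Bnip3 lay 0.19 above that median, as it did in the FPKM as deposited. The part of the other cell types in the values of the 10 genes was not tested.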

How the data were processed

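One table per mouse was used, for 5 nAAC and 5 sham LV libraries grouped by their titles, prepared with a NEBNext Ultra RNA kit. The authors deposited, for each gene, a coverage (a signal, the mean number of reads over an exon base), an FPKM and a TPM, which is the FPKM rescaled to a fixed total per library. The build in the submitters' processing notes is mm10. The aligner, the quantifier and the use of strand are not given in the sources used here, and overlapping antisense genes therefore cannot be told apart from their partners. Of 55141 genes matched by ID to GENCODE M21, 99.4% had the same start and end, as did the 10 genes described. Rows with the same gene ID were summed.

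FPKM was tested as log2(FPKM + 1), which understates the change of low genes, with limma 3.58.1 (R 4.3.3) and a mean-variance trend, for the 11867 genes whose FPKM averaged 1 or more, without covariates. Benjamini-Hochberg adjustment covered all of them. Calls used an adjusted p below 0.05, and DEGs also an absolute log2 FC above 1. Exact permutation tests were two-sided. The ratio of FPKM to coverage was divided by its most frequent value in the library. The exon length divided by the result gave transcript lengths. That most frequent value also gave the depth estimate. The fit was tested on simulated data. Promoters are from RefSeq (GRCm38.p6), with 9 of the 10 genes matched. All libraries differed from each other, and the most alike pair of a group, sham replicates 2 and 3, differed by a median of 0.13 on the log2 scale. The labels give no separate litters or cultures beyond 1 mouse per library. The p values therefore set the group difference against the spread between these mice, and the part of litter in that spread is unknown. Same-numbered mice did not deviate together, so no pairing was used.

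Other settings tried were scaling by median ratios or upper quartiles, TPM, FPKM without transcripts of the mitochondrial genome, centring on cardiomyocyte markers, a pseudocount of 0.1, no filter on low values, a replicate block, Xist as a covariate, removal of length and GC trends, leaving out each mouse and, added after the data were seen, coverage. In the setting without transcripts of the mitochondrial genome, FPKM was divided by the share of TPM held by all other genes. That is a share of TPM and not of fragments, and FPKM was not computed anew. The 10 genes and the lists were chosen with earlier results of these data known. All 10 genes are named. Of each other list, the genes named are those called, at most 3 in each direction by the size of the log2 FC, unless said otherwise. Figures were drawn with Python 3.11.15 and matplotlib 3.10.9.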

Additional observations from a re-analysis of the deposited data

Results flagged for a closer look

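In groups of 5 mice, a value was set aside for a closer look when its gap to the nearest other value, divided by the range of the group, exceeded 0.71. This was so in 3 of 56 groups examined, and chance gives about 2.8. All 3 concern the mean length of assigned transcripts. For Fis1, sham replicate 2 had 669 bases and the other sham mice 659 to 661, a ratio of 0.764. For Fundc1, nAAC replicate 4 had 1814 bases and the other nAAC mice 1845 to 1856, a ratio of 0.725. For Bnip3l, nAAC replicate 2 had 1031 bases and the others 1036 to 1038, a ratio of 0.72. No FPKM or FPKM ratio of the 10 genes in a group, sham replicate 4 included, passed this limit.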

How the results depend on the processing

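The count of 0 called genes among the 10 depended on the scaling: 4 were called after median-ratio and 4 after upper-quartile scaling (the same Mfn1, Mff, Fundc1 and Pink1, lower in nAAC mice), 3 without transcripts of the mitochondrial genome (Mfn1, Mff and Pink1, lower), 2 with length and GC trends removed (Mfn1 and Pink1, lower) and 1 each with TPM and with centring on cardiomyocyte markers (Bnip3, higher); it ranged from 0 to 1 when a mouse was left out, with Bnip3 called without nAAC replicate 4 and Fis1 without sham replicate 4. No setting gave a DEG. The share of all genes called was computed only for FPKM as deposited and for median-ratio scaling. Counts under the other settings have no such share beside them. The median log2 FC of all genes was 0.01 after upper-quartile scaling and 0.08 without transcripts of the mitochondrial genome. It was 0.0007 with length and GC trends removed, 0.39 with TPM and 0.32 with centring on cardiomyocyte markers. The log2 FC changed sign for Mfn2, Opa1, Dnm1l and Bnip3l, to -0.12, -0.25, -0.094 and -0.26 after median-ratio scaling, to -0.10, -0.23, -0.081 and -0.25 after upper-quartile scaling and to -0.021, -0.15, -0.00061 and -0.17 without transcripts of the mitochondrial genome. With length and GC trends removed it was -0.17 for Mfn2, -0.12 for Opa1 and -0.068 for Bnip3l, with TPM 0.021 for Fundc1, with Xist as a covariate -0.0062 for Bnip3l and with coverage -0.043 for Opa1. Leaving out a mouse gave from -0.044 to 0.048 for Bnip3l, -0.10 to 0.084 for Opa1, -0.12 to 0.14 for the log2 ratio of Dnm1l to Mfn2, and for transcript length from -0.0018 to 0.0034 for Fis1, -0.0027 to 0.0080 for Fundc1 and -0.000085 to 0.0032 for Bnip3l. The 15 calls in the 78 further genes became 6 with Xist as a covariate and 23 with length and GC trends removed (6 higher, 17 lower), and 9 to 20 when a mouse was left out, with 9 without nAAC replicate 3, nAAC replicate 4 or sham replicate 3 and 20 without sham replicate 4. The cause of these shifts was not tested.

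The mice share only replicate numbers, and residuals of same-numbered mice correlated at -0.32 to 0.19. With the number as a block, 0 of the 10 genes and 13 of the further genes were called, and for none of the 5 numbers did a mouse correlate best with its own.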
